A study of Rattus norvegicus with 6 samples.

Results

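Chemokines are small secreted proteins that guide the movement of cells, and chemokine receptors are the membrane proteins through which they act. Of the 18166 genes measured, 57 belong to this system, 36 ligand genes and 21 receptor genes. They were chosen by symbol alone: names that start with Ccl, Cxcl, Xcl, Ccr, Cxcr or Ackr followed by a number, together with Cx3cl1, Cx3cr1, Xcr1, Pf4, Ppbp and Ccrl2. Ccr1l1, a gene with the Ccr prefix and a suffix, was kept under this rule. Each gene is represented by 1 probe set. Ccl8, Cxcl5, Ackr1 and Ackr4 were not analysed here.

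RNA came from 6 cultures of wild-type Sprague-Dawley rat cells, isolated from newborn pups, with 1 expression array per culture. NSCPs (nerve-derived Schwann cell precursors, 3 isolates) were grown from sciatic nerve on laminin and poly-D-lysine with neuregulin-1β at 25 ng/ml and forskolin at 5 μM. SKPs (skin-derived precursors, 3 isolates) were grown from back skin as spheres with FGF2 at 40 ng/ml and EGF at 20 ng/ml. By the protocol text, the supplement was N2 at 2% for NSCPs and B27 at 2% for SKPs, with SKPs at 50000 cells per ml. The series' design text calls the isolates independent, and tissue, medium and growth form differ together between the groups. By its title the series belongs to a study of what these nerve cells secrete while a digit tip regrows. All values are log2 expression values on the RMA scale, and the difference is always NSCPs minus SKPs on that scale. Levels are compared between groups for the same gene and never between genes, because probe sets differ in their response.

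Most chemokine receptors are G protein-coupled and signal through inhibitory G proteins, which turn a gradient of ligand into directed movement. The atypical receptors bind chemokines without this signalling and take them out of the surroundings. Ligands are named for the spacing of their first cysteines (C, CC, CXC and CX3C), and many of the inflammatory ones are made by macrophages and by fibroblasts that have sensed injury. In peripheral nerve, Schwann cells are a known source of Ccl2, which draws monocytes after damage.

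A gene was called higher or lower when its adjusted p in limma, over all 18166 genes, was under 0.05. By this rule 6 of the 57 members were higher in NSCPs (10.5%) and 19 were lower (33.3%). The background was 25.2% of all genes higher and 18.6% lower. These shares are the reference for each list count below. The median difference was -0.01 over the members and 0.14 over all genes. Tested against a 2-fold change itself with limma's treat, 1 member was higher (3.93% of all genes) and 10 were lower (5.75% of all genes). In 30 members (52.6%) the 3 NSCP arrays and the 3 SKP arrays did not overlap, against 56.6% of all genes. Centring each array on its median shifted every difference upward by 0.20, and the median over all genes from 0.14 to 0.35. The split then stood at 17 members higher and 17 lower, against 44.9% and 14.9% of all genes. Directions of small differences therefore depend on the scaling.

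Probe sets for genes that these cells are not known to use also give a signal, so a background level was set at 5.32, which 95% of 227 genes for olfactory and vomeronasal receptors stay under by their mean on the 6 arrays. By group mean, 26 members lay above it in NSCPs (45.6%, against 68.3% of all genes) and 35 in SKPs (61.4%, against 68.3% of all genes). Both groups were above it for 21 members and neither for 17. Where all 3 arrays of the lower group lay within background, the fold is given as a bound against that level, and the fitted difference of such a gene is no measure of its size.

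Markers checked the labels and the other cell types the cultures could hold. The 6 measured Schwann lineage markers were all higher in NSCPs and the 8 dermal fibroblast markers all lower, although Col1a1 averaged 11.80 in NSCPs and 12.75 in SKPs. Of 16 macrophage markers 12 were lower in NSCPs and 0 higher (limma, also 0 at an unadjusted p under 0.05). The mean of these 16 lay between 5.02 and 5.19 in the NSCP arrays and was 9.25, 8.30 and 8.52 in SKP replicates 1, 2 and 3. In NSCPs the means of Ptprc, Lyz2, Fcer1g, Cd53, Tyrobp, Itgam, Adgre1, Aif1, Mrc1 and C1qb were within background. Means of 5 of the 16 lay above it in NSCPs: Cd68 (5.50), Cd14 (5.76), Csf1r (5.72), C1qa (6.33) and C1qc (5.34). In both groups C1qa was above background and Cd163 within it. Of 5 dendritic cell markers 4 were lower in NSCPs, Itgax (-1.82) and Zbtb46 (-1.19) among them, with array means of 5.10 to 5.31 in NSCPs and 5.94 to 6.14 in SKPs. Of 10 lymphocyte and natural killer cell markers 1 was lower, Cd4 (-4.26), which rat macrophages also express, and 2 were higher, Cd3g and Prf1. Both group means of Prf1 were within background, and Cd3d and Cd3e were not called. Of 4 pericyte markers Cspg4 (-2.89) and Rgs5 (-0.91) were lower. Of 8 neutrophil and mast cell markers 0 were above background in SKPs by group mean, although Csf3r read 5.40 in SKP replicate 1. The part of RNA from these cell types in the results that follow was not tested. In RNA of whole cultures, fewer cells of a type and less RNA per cell cannot be told apart.

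**Figure D1:**
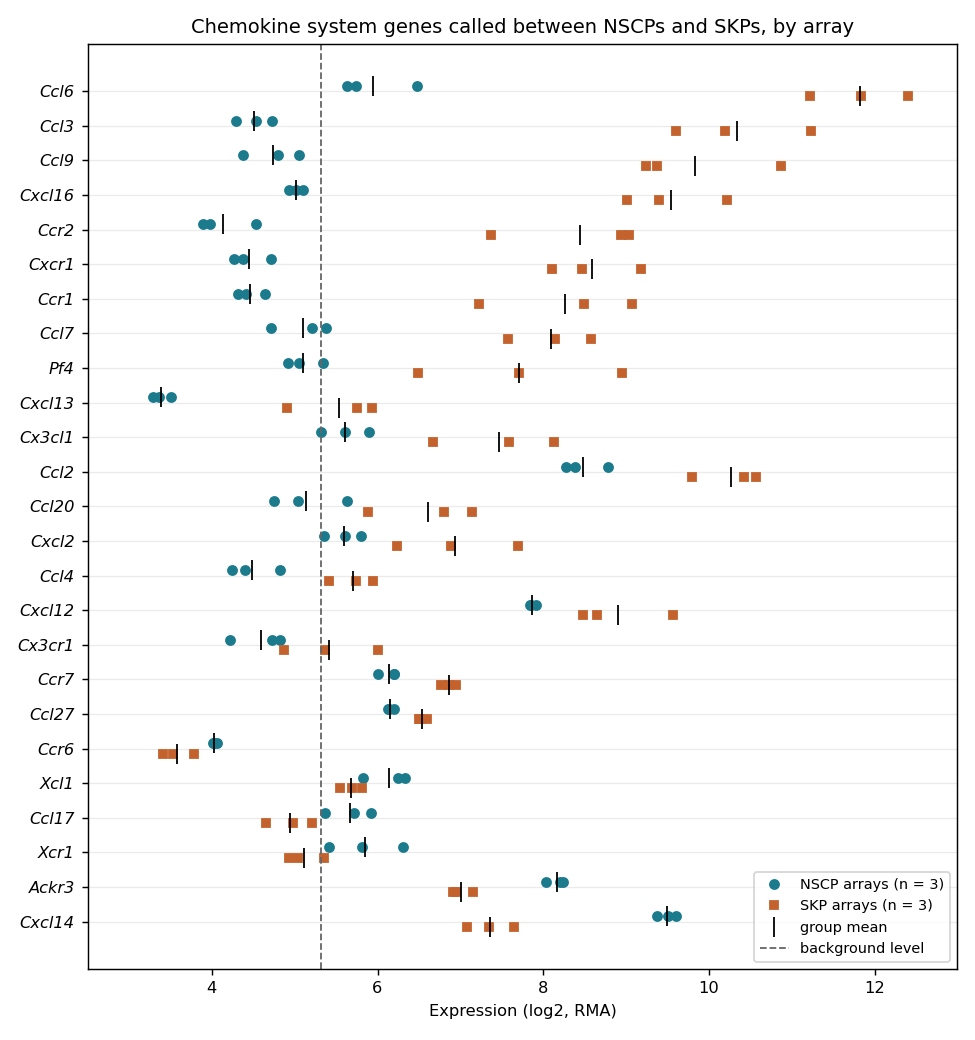
Expression (log2, RMA) of the 25 members called between the groups, one row per gene from the most negative to the most positive difference, with NSCP arrays as circles above SKP arrays as squares and bars at the group means. The dashed line is the background level of 5.32, and 19 genes have all SKP values to the right of the NSCP values and 6 the reverse.

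Among the ligands, Cxcl14 was the member with the largest excess in NSCPs. It encodes a CXC chemokine made by epithelia and connective tissue, and skin is a known site of its expression. Cxcl14 stood at 9.50, 9.61 and 9.37 in NSCP replicates 1, 2 and 3, against 7.08, 7.35 and 7.64 in SKP replicates 1, 2 and 3. All 3 NSCP arrays lay above all 3 SKP arrays, and both groups lay above background. The difference was 2.14 (SE 0.16, adjusted p = 1.19e-05 in limma), or 4.40-fold, and Cxcl14 was the member that passed the 2-fold test in this direction.

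Cxcl12 and its atypical receptor Ackr3 differed in opposite directions. Cxcl12, the ligand that retains and guides many stem and blood cells, stood at 7.91, 7.85 and 7.84 in NSCPs, against 8.65, 9.57 and 8.48 in SKPs. The NSCP arrays were close together and below each SKP array, of which replicate 2 was the highest, and the difference was -1.03 (SE 0.26, adjusted p = 0.0112 in limma). Ackr3 encodes the atypical receptor that binds and removes this ligand. It stood at 8.24, 8.21 and 8.03 in NSCPs, against 6.91, 7.15 and 6.95 in SKPs, without overlap. Ackr3 was 2.23-fold higher in NSCPs (SE 0.13 on the log2 scale, adjusted p = 1.14e-04 in limma).

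Cxcr4, the signalling receptor of the same ligand, read 7.003, 7.23 and 6.85 in NSCPs, against 7.48, 5.83 and 6.43 in SKPs. The SKP arrays spread on both sides of the NSCP arrays, and the difference of 0.45 did not pass (SE 0.36, 95% interval from -0.37 to 1.27, adjusted p = 0.336 in limma). That outcome rested on SKP replicate 1, the isolate with the highest Cxcr4 and the highest mean of the macrophage markers. Without it the difference was 0.90 with an adjusted p of 0.00974 in limma, and without SKP replicate 2 it was 0.07 (adjusted p = 0.851).

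The inflammatory CC ligands, attractants of monocytes and other leukocytes, had 6 of 11 measured members lower in NSCPs (18.6% of all genes). Higher were 0 (25.2% of all genes, limma, also 0 members at an unadjusted p under 0.05). The median difference of -1.21 is the fitted value of Ccl4, whose NSCP arrays were within background, so it is no measure of size. Ccl6, known from rodents as a macrophage product that acts on Ccr1, was lower in NSCPs. Ccl6 stood at 5.73, 6.48 and 5.63 in NSCPs, against 11.83, 12.40 and 11.22 in SKPs, and was 58.6-fold lower in NSCPs (SE 0.32 on the log2 scale, adjusted p = 1.60e-06 in limma). Its NSCP values were low but all above background.

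Ccl3, which encodes macrophage inflammatory protein 1 alpha, read 4.29, 4.53 and 4.72 in NSCPs, against 11.24, 9.60 and 10.20 in SKPs. All 3 NSCP values were within background, so Ccl3 was at least 32.6-fold lower in NSCPs (adjusted p = 3.41e-06 in limma). The rodent gene Ccl9, whose product also acts on Ccr1, had 4.38, 5.05 and 4.80 in NSCPs, against 10.86, 9.24 and 9.38 in SKPs, and was at least 22.8-fold lower (adjusted p = 1.47e-05 in limma). In Ccl3 and Ccl9 alike, SKP replicate 1 was the highest of the 6 arrays.

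Ccl2, the monocyte attractant, was above background on all 6 arrays. Its values were 8.27, 8.38 and 8.78 in NSCPs, against 10.43, 9.80 and 10.57 in SKPs. The groups did not overlap, and Ccl2 was 3.46-fold lower in NSCPs (SE 0.22 on the log2 scale, adjusted p = 2.47e-04 in limma). Ccl7, a related attractant of monocytes, read 5.21, 5.38 and 4.72 in NSCPs, against 8.14, 7.57 and 8.58 in SKPs. Its difference was -2.99 (SE 0.26, adjusted p = 3.21e-05 in limma), with 1 of the 3 NSCP arrays above background.

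Ccl4, an attractant of monocytes and T cells, read 4.40, 4.83 and 4.24 in NSCPs, against 5.74, 5.42 and 5.94 in SKPs. With all NSCP arrays within background, Ccl4 was at least 1.30-fold lower in NSCPs (adjusted p = 0.00105 in limma). Ccl12 was not called (-0.62, adjusted p = 0.182 in limma). Its arrays read 4.92, 4.82 and 4.42 in NSCPs and 5.11, 6.21 and 4.69 in SKPs, where replicate 2 was the highest and replicate 3 lay among the NSCP arrays. Ccl5, an attractant of T cells and monocytes, overlapped at 6.07, 6.01 and 5.82 in NSCPs and 5.68, 5.88 and 5.84 in SKPs (0.17, adjusted p = 0.317). The eosinophil attractants Ccl24 (0.18), Ccl26 (0.23) and Ccl11 (0.32) did not pass either. Ccl24 and Ccl26 were within background in both groups. Ccl2, Ccl7 and Ccl12 are close relatives, as are Ccl3 and Ccl4, and Ccl6 and Ccl9, so a probe set may also read a relative's RNA, and their separate values are uncertain to that extent.

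Several of the other CC ligands guide lymphocytes and dendritic cells. In this list 1 of 9 was higher in NSCPs and 2 were lower, against 25.2% and 18.6% of all genes. The median difference was 0.02. Ccl20, an attractant of cells with Ccr6, stood at 4.75, 5.63 and 5.04 in NSCPs, against 6.81, 5.89 and 7.14 in SKPs, a difference of -1.47 (adjusted p = 0.00686 in limma). SKP replicate 2 was just above the highest NSCP array. Ccl27, the skin chemokine of keratinocytes, read 6.14, 6.13 and 6.20 in NSCPs, against 6.51, 6.50 and 6.60 in SKPs, with a difference of -0.39 (adjusted p = 0.0207). Its call was lost without NSCP replicate 3, SKP replicate 1 or SKP replicate 3 (adjusted p from 0.0501 to 0.0877), with renewed quantile normalization (0.210) and with median centring (0.187).

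Ccl17, a ligand of Ccr4, was at 5.72, 5.92 and 5.36 in NSCPs and at 4.66, 4.98 and 5.21 in SKPs. All SKP values were within background, and Ccl17 was at least 1.27-fold higher in NSCPs (adjusted p = 0.0148 in limma, and 0.0554 without NSCP replicate 2). Ccl19 and Ccl21, the ligands of Ccr7, were not called. Ccl19 read 5.41, 5.41 and 5.62 in NSCPs, against 5.19, 5.38 and 5.40 in SKPs, and Ccl21 read 5.76, 5.40 and 5.80 in NSCPs, against 5.71, 5.63 and 5.54 in SKPs. Both lay close to the background level. Ccl25, an attractant of thymocytes, stood at 6.51, 6.39 and 6.43 in NSCPs, against 5.97, 6.47 and 6.25 in SKPs, and Ccl22, a ligand of Ccr4, at 5.45, 5.64 and 5.23 in NSCPs, against 5.98, 5.48 and 5.33 in SKPs. The groups overlapped in both, with adjusted p of 0.275 and 0.532 in limma. Ccl1 and Ccl28 were within background in both groups.

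Among the ELR CXC ligands, named for a Glu-Leu-Arg motif and known as attractants of neutrophils, 1 of 5 was lower in NSCPs and 0 were higher (limma). At an unadjusted p under 0.05, Ppbp was higher as well. Cxcl2 read 5.61, 5.81 and 5.36 in NSCPs, against 7.70, 6.23 and 6.88 in SKPs, and was 2.54-fold lower in NSCPs (SE 0.32 on the log2 scale, adjusted p = 0.00947 in limma). Cxcl1, its neighbour and close relative, stood at 6.05, 5.98 and 5.66 in NSCPs, against 6.20, 6.15 and 6.20 in SKPs, a difference of -0.28 that did not pass (adjusted p = 0.121). Its 95% interval ran from -0.59 to 0.02. With array weights Cxcl1 did pass (adjusted p = 0.0105). Its difference was -0.17 without NSCP replicate 3, -0.14 with renewed quantile normalization and -0.08 with median centring (adjusted p = 0.365, 0.459 and 0.622 in limma). Cxcl3 and Cxcl6 were within background in both groups, with differences of 0.00 to 2 decimals.

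The interferon-induced ligands Cxcl9, Cxcl10 and Cxcl11, which attract activated T cells through Cxcr3, were not called (limma, 0 of 3 also at an unadjusted p under 0.05). Cxcl10 was above background on each array, at 6.06, 6.30 and 6.01 in NSCPs and 6.11, 5.93 and 6.22 in SKPs, with overlap (difference 0.04). Cxcl9 and Cxcl11 were within background in both groups.

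The remaining CXC, XC and CX3C ligands had 2 of 8 members higher and 5 lower in NSCPs, against 25.2% and 18.6% of all genes. Their median difference was -1.44. Cxcl16 encodes a membrane-anchored chemokine that also acts as a scavenger receptor. Its values were 4.94, 5.01 and 5.10 in NSCPs, against 10.22, 9.01 and 9.40 in SKPs, at least 18.7-fold lower in NSCPs (adjusted p = 2.83e-06 in limma). All 3 NSCP arrays were within background. Cx3cl1, or fractalkine, the other membrane-anchored chemokine, read 5.32, 5.90 and 5.61 in NSCPs, against 7.59, 6.67 and 8.13 in SKPs, with a difference of -1.85 and an SE of 0.33 (adjusted p = 0.00206 in limma).

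Pf4, platelet factor 4, which macrophages and megakaryocytes make, stood at 5.06, 4.92 and 5.34 in NSCPs, against 7.70, 8.95 and 6.48 in SKPs. The SKP isolates spanned the widest range of any lower member, and the difference was -2.61 (SE 0.51, adjusted p = 0.00325 in limma) with the NSCP mean within background. Cxcl13, an attractant of B cells, read 3.51, 3.36 and 3.29 in NSCPs, against 5.93, 4.91 and 5.75 in SKPs. With all NSCP arrays within background it was at least 1.16-fold lower in NSCPs (adjusted p = 1.51e-04 in limma). Its SKP values lay near the background level, and 1 of them was within it. Xcl1, a C chemokine of lymphocytes, read 6.34, 6.25 and 5.82 in NSCPs, against 5.54, 5.69 and 5.81 in SKPs, and passed narrowly (adjusted p = 0.0498 in limma). Without NSCP replicate 1 or 2, or without any 1 SKP replicate, its adjusted p was 0.0717 to 0.144. Cxcl17, a mucosal chemokine, read 5.95, 5.88 and 6.02 in NSCPs, against 5.54, 5.96 and 5.68 in SKPs, and was not called (0.22, adjusted p = 0.232).

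**Figure D2:**
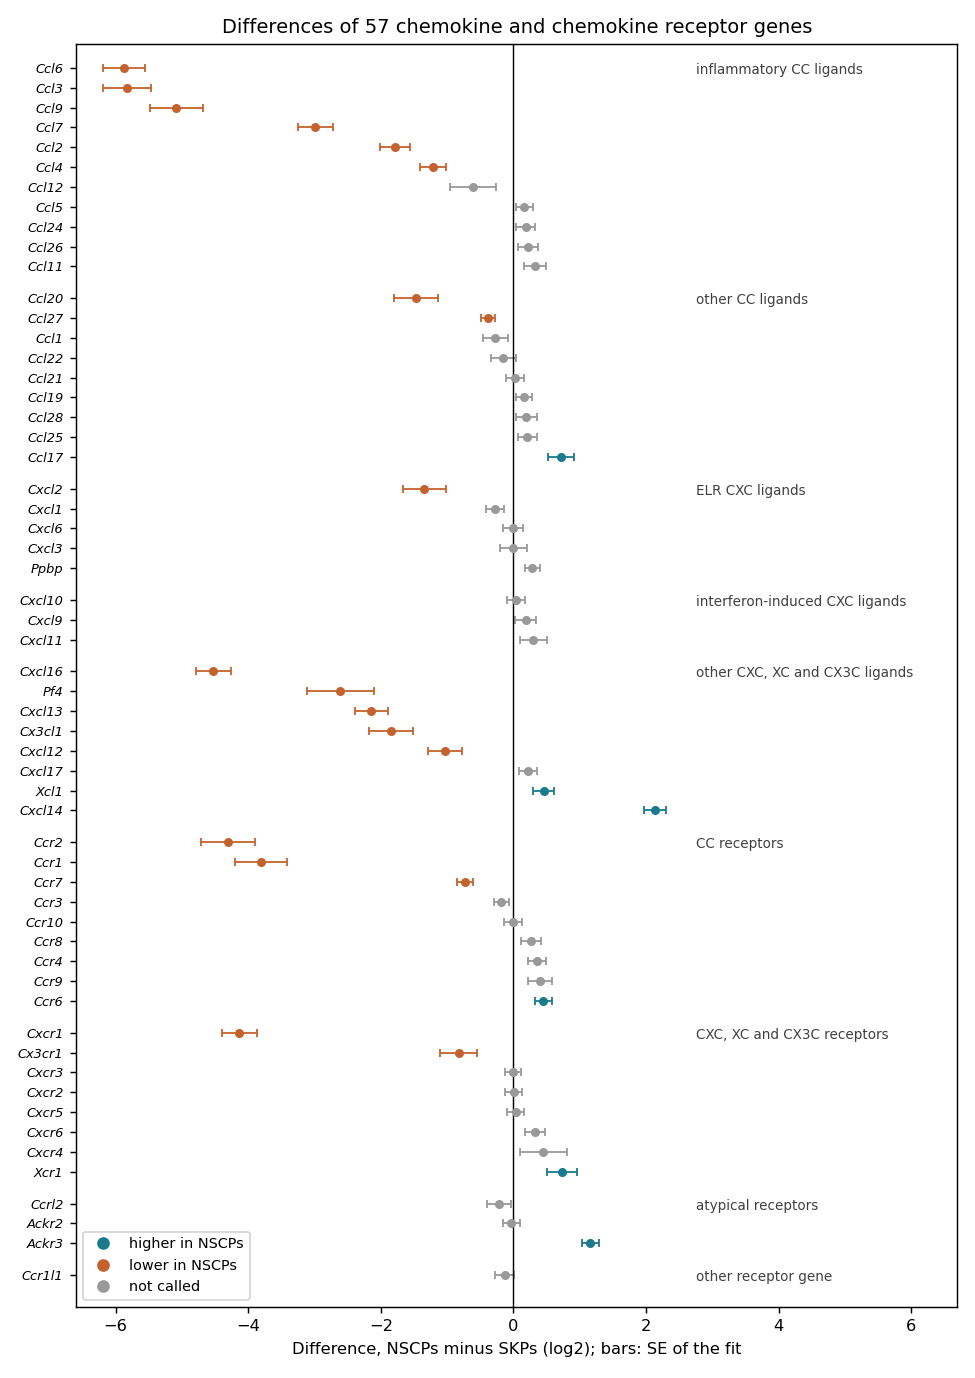
Difference (NSCPs minus SKPs, log2) of the 57 members by subfamily, with bars for the SE of the fit. Teal marks the 6 members higher in NSCPs, orange the 19 lower and grey the 32 not called. The points farthest to the left are Ccl6 at -5.87 and Ccl3 at -5.83, and the point farthest to the right is Cxcl14 at 2.14. Points of genes with all arrays of the lower group within background, Ccl3 among them, are no measure of size.

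Receptor genes had 3 of 21 members higher and 5 lower in NSCPs, against 25.2% and 18.6% of all genes. Above background were 7 in NSCPs and 10 in SKPs, against 68.3% of all genes in each group. Of 9 CC receptors 1 was higher and 3 were lower. Ccr2, the receptor of Ccl2 on monocytes, read 3.98, 3.90 and 4.53 in NSCPs, against 9.03, 7.37 and 8.94 in SKPs, at least 8.75-fold lower in NSCPs (adjusted p = 4.90e-05 in limma). Ccr1, the receptor of Ccl3 and of the rodent ligands Ccl6 and Ccl9, stood at 4.41, 4.64 and 4.31 in NSCPs, against 9.07, 7.23 and 8.49 in SKPs, at least 7.70-fold lower (adjusted p = 8.28e-05 in limma). Both receptors were within background on each NSCP array and lowest among the SKPs in replicate 2.

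Cxcr1, a receptor of ELR ligands known from neutrophils, was at 4.38, 4.26 and 4.71 in NSCPs, against 9.18, 8.11 and 8.47 in SKPs. It was at least 9.64-fold lower in NSCPs (adjusted p = 3.97e-06 in limma). Its neighbour Cxcr2, the other receptor of these ligands, was within background in both groups (difference 0.01). The cell source of the Cxcr1 RNA was not tested. Cx3cr1, the fractalkine receptor of monocytes and macrophages, read 4.22, 4.72 and 4.83 in NSCPs, against 6.01, 4.87 and 5.37 in SKPs. All NSCP arrays were within background, and Cx3cr1 was at least 1.07-fold lower in NSCPs (adjusted p = 0.0429 in limma). That call was lost without any 1 of the NSCP arrays, SKP replicate 1 or SKP replicate 3 (adjusted p from 0.0550 to 0.137), and the fitted difference of -0.83 was -0.53 without SKP replicate 1.

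Ccr7, a receptor that leads dendritic and T cells to lymph nodes, read 6.20, 6.19 and 6.002 in NSCPs, against 6.87, 6.77 and 6.94 in SKPs. The groups did not overlap and the difference of -0.73 passed (SE 0.12, adjusted p = 0.00140 in limma). Xcr1, the receptor of Xcl1, was at 5.81, 6.31 and 5.41 in NSCPs, against 4.93, 5.04 and 5.36 in SKPs (difference 0.73, adjusted p = 0.0284 in limma). Without NSCP replicate 1 or 2, or SKP replicate 1 or 2, its adjusted p was 0.0601 to 0.0781. Ccr6 was called at 0.45 (adjusted p = 0.0223) although both means were within background, and its adjusted p was 0.0505 to 0.0805 without NSCP replicate 1 or 3 or SKP replicate 1 or 3.

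The remaining receptors gave no call. Ccr10, the receptor of Ccl27, overlapped at 5.74, 5.56 and 5.76 in NSCPs and 5.68, 5.86 and 5.53 in SKPs. Ackr2, an atypical receptor that removes inflammatory CC ligands, overlapped at 5.79, 5.96 and 5.75 in NSCPs and 5.73, 6.005 and 5.85 in SKPs. Their differences were -0.01 (95% interval from -0.31 to 0.30) and -0.03 (95% interval from -0.32 to 0.26). Ccr4 differed by 0.35 (adjusted p = 0.0685, and 0.0194 without NSCP replicate 1). Ccrl2, an atypical receptor that holds the attractant chemerin, differed by -0.22 with means at the background level. Ccr3, Ccr8, Ccr9, Ccr1l1, Cxcr3, Cxcr5 and Cxcr6 were within background in both groups.

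Known ligand and receptor pairs were set side by side, 29 pairs in all with ligands and receptors recurring among them. Both genes were above background in 8 pairs in NSCPs, against 13 pairs in SKPs, and 5 pairs were shared. In NSCPs these were Cxcl12 with Cxcr4 and with Ackr3, Ccl19 and Ccl21 with Ccr7, Ccl27 with Ccr10, Ccl17 and Ccl22 with Ccr4, and Xcl1 with Xcr1. The pairs of SKPs outside the shared ones were those of Ccr1 and Ccr2 with their ligands and Cx3cl1 with Cx3cr1. Several of these genes lay just above background, such as Ccr4 (5.43) and Ccl22 (5.44) in NSCPs and Ccl12 (5.34) and Cx3cr1 (5.41) in SKPs. Above the 99th percentile level of 6.47 with both genes were, in NSCPs, the pairs of Cxcl12 alone. In SKPs these were the pairs of Cxcl12, of Ccl2 and Ccl7 with Ccr2, and of Ccl3, Ccl6 and Ccl9 with Ccr1. In 6 pairs both genes were lower in NSCPs: Ccl2 and Ccl7 with Ccr2, Ccl3, Ccl6 and Ccl9 with Ccr1, and Cx3cl1 with Cx3cr1. In 1 pair, Xcl1 and Xcr1, both were higher.

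Many chemokine genes lie side by side in the genome, and neighbours did not all share their differences. By gene order in RefSeq's rat assembly GRCr8, Ccl5, Ccl9, Ccl6, Ccl3 and Ccl4 lie close together in this order on chromosome 10. Ccl9, Ccl6 and Ccl3 were at least 22.8-fold, 58.6-fold and at least 32.6-fold lower in NSCPs. Ccl4 at one end was at least 1.30-fold lower, and Ccl5 at the other end differed by 0.17. In the second group on chromosome 10, Ccl2 and Ccl7 were lower while Ccl11, Ccl12 and Ccl1 were not called. On chromosome 14, Cxcl2 and Pf4 were lower among 6 neighbours. On chromosome 8, Ccr1 and Ccr2 (at least 7.70-fold and at least 8.75-fold lower) stand on either side of Ccr3 and Ccr1l1. These 2 were not called and were within background in both groups.

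**Figure D3:**
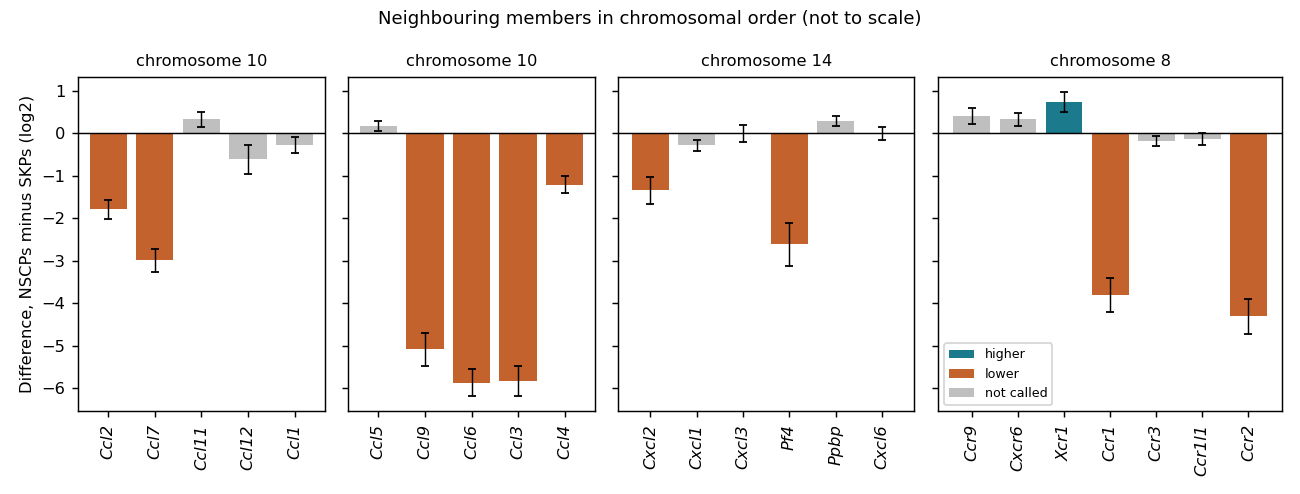
Difference (NSCPs minus SKPs, log2, bars with SE of the fit) of members that neighbour each other on chromosomes 10, 14 and 8, drawn in chromosomal order and not to scale. Teal is higher in NSCPs, orange lower and grey not called. The orange bars of Ccl9, Ccl6 and Ccl3 reach beyond -5, next to Ccl5 at 0.17. For Ccl9, Ccl3, Ccl4, Ccr1 and Ccr2 all NSCP arrays were within background, so the bar length is no measure of size.

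Promoter sequences from RefSeq (GRCr8) were found for 44 of the 57 members. The 13 without one include Ccl2, Ccl3, Ccl4, Ccr7 and Pf4, which were lower in NSCPs. Sequences are shown for Cxcl14 and Ackr3, the members with the largest excess in NSCPs. They are also shown for Ccl6, Ccl9 and Cxcl16 among those with the largest deficit, and for the ELR neighbours Cxcl2, Cxcl1 and Cxcl6. Each run goes 5′ to 3′ on the gene's own strand from 120 bases before the start of transcription to 30 bases from it. Capitals mark matches, on either strand, to a κB-like motif (GGNNTTTCC), an AP-1 motif (TGANTCA) or a TATA motif (TATAAA). The stretches lie at chr17:8323030-8323179 (+ strand), chr9:98247234-98247383 (+ strand), chr10:68883337-68883486 (- strand), chr10:68868848-68868997 (- strand), chr10:55669921-55670070 (- strand), chr14:17467226-17467375 (- strand), chr14:17479292-17479441 (- strand) and chr14:17596388-17596537 (- strand).
Cxcl14: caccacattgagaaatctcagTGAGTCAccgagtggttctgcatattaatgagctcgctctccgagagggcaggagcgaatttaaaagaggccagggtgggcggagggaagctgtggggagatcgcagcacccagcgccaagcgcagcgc
Ackr3: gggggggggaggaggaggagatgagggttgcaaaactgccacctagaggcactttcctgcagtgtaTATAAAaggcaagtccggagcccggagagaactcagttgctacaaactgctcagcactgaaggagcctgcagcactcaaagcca
Ccl6: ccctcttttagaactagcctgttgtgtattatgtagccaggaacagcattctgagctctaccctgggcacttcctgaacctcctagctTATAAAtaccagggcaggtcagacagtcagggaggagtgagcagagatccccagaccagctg
Ccl9: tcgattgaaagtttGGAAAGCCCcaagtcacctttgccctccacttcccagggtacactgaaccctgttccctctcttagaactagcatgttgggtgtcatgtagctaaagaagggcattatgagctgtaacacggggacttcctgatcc
Cxcl16: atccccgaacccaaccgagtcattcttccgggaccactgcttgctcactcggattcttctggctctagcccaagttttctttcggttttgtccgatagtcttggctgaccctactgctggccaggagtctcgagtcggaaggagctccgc
Cxcl2: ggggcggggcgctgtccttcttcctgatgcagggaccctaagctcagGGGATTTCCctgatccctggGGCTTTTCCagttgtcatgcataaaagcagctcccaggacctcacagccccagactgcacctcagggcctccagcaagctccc
Cxcl1: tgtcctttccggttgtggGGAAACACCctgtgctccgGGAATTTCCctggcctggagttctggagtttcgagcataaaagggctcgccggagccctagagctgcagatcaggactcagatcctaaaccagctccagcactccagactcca
Cxcl6: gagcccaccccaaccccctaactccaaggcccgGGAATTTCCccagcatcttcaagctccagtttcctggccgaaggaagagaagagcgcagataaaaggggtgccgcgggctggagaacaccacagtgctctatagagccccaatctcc

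In the window from 250 bases before to 50 after the start, the κB-like motif was present in 9 of 44 member promoters (20.5%), against 6.05% of all 33469 promoters. Cxcl2 and Cxcl1 hold 2 such matches each and Cxcl6 holds 1, although Cxcl2 was lower in NSCPs, Cxcl1 was not called and Cxcl6 was within background. Ccl20, Ccl9, Ccr3, Cxcl9, Cxcl10 and Cxcl11 hold it as well. The AP-1 motif was found in 7 of 44 (15.9%, against 7.33% of all promoters), Cxcl14 and Ccl7 among them. The TATA motif was found in 13 of 44 (29.5%, against 14.2%), including Ackr3 and Ccl6 in the stretches shown. No match overlapped one of another motif, and an AP-1 match reads the same on both strands and was counted once. In the stretch of Cxcl16 none of these letters were found. A match describes the letters of the window and is no evidence of binding.

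Among the 3 SKP isolates the lower members did not all follow the same order. Their range over the SKP arrays exceeded that over the NSCP arrays in 17 of 19 (89.5%, against 43.4% of all genes). The median range was 0.45 in NSCPs and 1.18 in SKPs. These members were selected as lower in NSCPs, many with NSCP means within background. All genes are therefore no like set for this comparison. Of the 19, 9 were highest in SKP replicate 1 and lowest in replicate 2, which is also the order of the macrophage marker mean. These were Ccl3, Ccl9, Cxcl16, Ccr2, Cxcr1, Ccr1, Cxcl13, Cxcl2 and Cx3cr1. Another 7, including Ccl7, Ccl2, Cx3cl1 and Ccl20, were highest in replicate 3 and lowest in replicate 2, although Ccr7 and Ccl27 ranged over no more than 0.18 and 0.0953 in SKPs. Ccl6, Pf4 and Cxcl12 were highest in replicate 2, the isolate with the lowest macrophage marker mean. The mean of all 57 members, 6.17, 5.99 and 6.05 in SKP replicates 1, 2 and 3, had the macrophage marker order too. Single macrophage markers departed from it, such as Cd68 and Adgre1, which were lowest in replicate 3. With 3 isolates these orders are a description with no test.

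**Figure D4:**
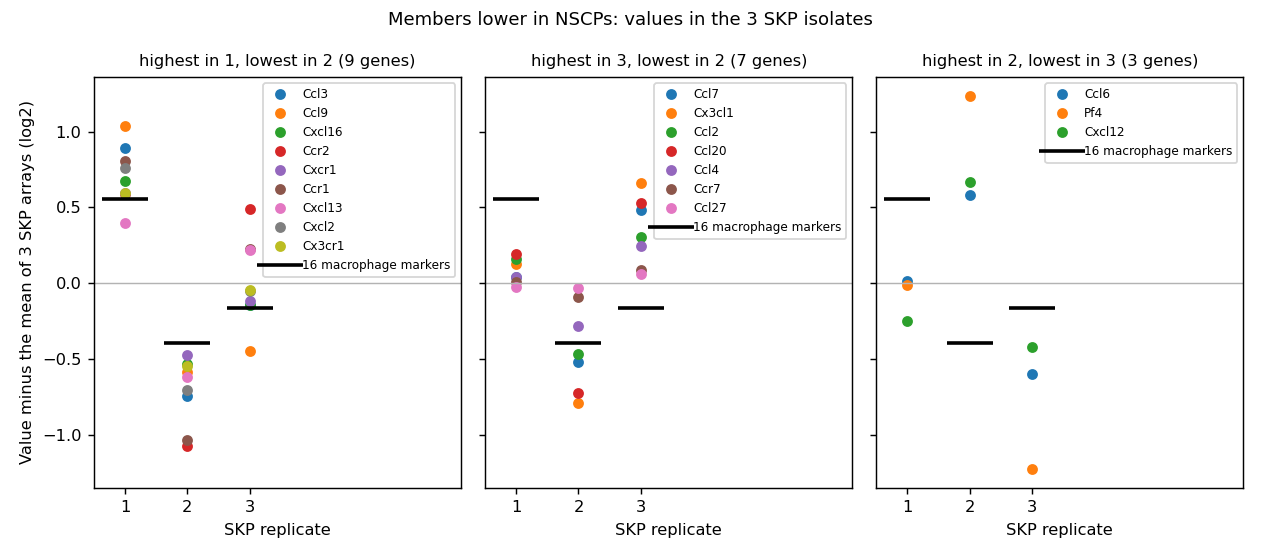
Each of the 19 members lower in NSCPs in the 3 SKP isolates, as the value minus the mean of the 3 SKP arrays (log2), with the members split by the isolate in which they were highest and lowest. The black bars are the mean of the 16 macrophage markers, highest in replicate 1 and lowest in replicate 2, an order shared by the 9 genes on the left and not by Ccl6, Pf4 and Cxcl12 on the right.

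Genes that carry the receptor signal were examined next. A signalling list had 22 measured genes, with a median difference of -1.03. Of these 4 were higher in NSCPs and 12 were lower, against 25.2% and 18.6% of all genes. Among the lower ones Rac2 was 25.1-fold and Rgs2 17.4-fold lower in NSCPs. Was, Rgs1 and Ptk2b were within background on all NSCP arrays and at least 21.3-fold, at least 9.04-fold and at least 12.7-fold lower. Was and Rac2 encode regulators of the actin skeleton in blood cells, Rgs1 and Rgs2 encode proteins that shut off G protein signals, and Ptk2b encodes a kinase of cell adhesion. The higher ones were Prex1, an activator of Rac (1.80, adjusted p = 9.81e-04 in limma), the receptor kinase genes Grk5 (0.74) and Grk6 (0.73), and Arrb1 (0.65), which encodes an arrestin. Gnai2, which encodes an inhibitory G protein subunit, averaged 11.89 ± 0.10 in NSCPs, against 11.98 ± 0.14 in SKPs (n = 3 isolates each, SD), and was not called.

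Among genes of signals that induce chemokines, 15 of 20 measured were lower in NSCPs and 0 higher (limma), against 18.6% and 25.2% of all genes. Their median difference was -1.08. At an unadjusted p under 0.05, Ifng was the gene with a higher value, and it lay within background in both groups. Il1r1, the receptor of interleukin 1, was 35.6-fold lower in NSCPs (5.41 ± 0.04 against 10.57 ± 0.19, SD, n = 3 each), and the TNF receptor gene Tnfrsf1b (-2.52) and Nfkbiz (-1.87), which encodes an NF-κB cofactor, were lower too. The toll-like receptor gene Tlr4 and the cytokine gene Il1b were within background on all NSCP arrays and at least 4.29-fold and at least 2.20-fold lower in NSCPs. The NF-κB subunit genes Rela (-0.24) and Rel (-0.17) were not called, and Nfkb1 (-0.62) and Relb (-0.85) were lower.

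Proteases that trim or release chemokines had 2 of 11 members higher and 6 lower in NSCPs, against 25.2% and 18.6% of all genes. The collagenase gene Mmp13 and the elastase gene Mmp12 were within background on all NSCP arrays and at least 49.7-fold and at least 6.51-fold lower in NSCPs. Mmp9 (-3.76, with an NSCP mean within background), Mmp14 (-2.74) and Mmp2 (-2.74) were lower too. Ctsg, which encodes cathepsin G, was called higher although both group means, 4.74 in NSCPs and 4.35 in SKPs, were within background. Adam17, the sheddase that can free Cx3cl1 and Cxcl16 from the membrane, averaged 11.26 ± 0.20 in NSCPs, against 10.83 ± 0.17 in SKPs (n = 3 isolates each, SD), and was called higher (adjusted p = 0.0465 in limma). Macrophages are known to express Was, Rac2, Il1b, Tlr4, Mmp9 and Mmp12 among these genes, which were picked from 3 lists by this knowledge. The picked genes were all lower in NSCPs. In the signalling, inducer and protease lists 4, 0 and 2 members were higher, Prex1 (1.80) and Adam17 (0.43) among them. The part of any cell type in the differences of these lists was not tested.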

How the data were processed

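RNA of 3 NSCP and 3 SKP isolates was measured on expression arrays, from 400 ng of total RNA per the labels' protocols. The deposited values are log2 values per probe set, made by the authors with oligo and RMA per the submitters' processing notes, which give no versions. RMA equalizes the distributions of arrays, so a shift of all genes in one group would not be seen. Of 36685 probe sets 18511 have 1 symbol, 575 have several and 17599 have none, and the last 2 kinds were not used. Single symbols were updated through Entrez IDs to RefSeq names (18394 matched, 117 kept the platform's). For 291 genes with several probe sets the brightest by its mean on all 6 arrays was taken, and each member has 1.

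NSCPs and SKPs were compared by limma 3.58.1 in R 4.3.3 (lmFit, eBayes, 2-sided) with Benjamini-Hochberg adjustment over 18166 genes, tested on simulated data. Intervals are 95%. The isolates' replicate numbers share no stated source and were not used as pairs. All members may be named, and those called and above background in a group, or above background in both, are given by array. Other lists name up to 5 called genes each with the largest differences, beyond which genes were chosen after their values were seen. Members and lists were chosen with earlier results of these data known. Alternatives covered single arrays left out, a replicate block, normalization, filters on dim genes, probe set choice, the prior, weights and thresholds. Motifs were searched in Python 3.11.15, and figures were drawn with matplotlib 3.10.9. The number of arrays limits the precision.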

Additional observations from a re-analysis of the deposited data

How the results depend on the processing

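Of the 25 called members 11 kept their call under each of the 17 alternatives in which they were tested: Ccl2, Ccl3, Ccl6, Ccl7, Ccl9, Ccr1, Ccr2, Cxcl13, Cxcl14, Cxcl16 and Cxcr1. A further 8 lost it only to the 2-fold test or to an adjusted p under 0.01, and no called member changed sign. The 6 others were Ccl17, Ccl27, Ccr6, Cx3cr1, Xcl1 and Xcr1, whose losses without 1 array stand beside their values. Array weights ended the calls of Ccl17 (adjusted p = 0.0648), Xcl1 (0.236) and Xcr1 (0.151), adjustment over all probe sets those of Cx3cr1 (0.0814), Xcl1 (0.0888) and Xcr1 (0.0587), renewed quantile normalization that of Ccr6 (0.0515), and median centring that of Cx3cr1 (0.0715). Members higher in NSCPs numbered 17 with median centring, 3 among genes above the median of all probe sets, 1 by the 2-fold test, 2 at an adjusted p under 0.01 and from 3 to 5 without 1 array, the lowest without NSCP replicate 2. Members lower numbered 10 by the 2-fold test and from 17 to 19 without 1 array. With the replicate number as a block 6 were higher and 18 lower, Cx3cr1 (adjusted p = 0.0703) and Xcl1 (0.0807) being lost and Ccr9 (0.0462), within background in both groups, being gained. Same-numbered isolates' deviations correlated at 0.0372, 0.0501 and 0.0283 across genes, each array's best match being its own number. These values are small, and with 3 arrays per group they cannot decide whether isolates were paired, which the design does not state. At the 99th percentile of the receptor genes as background, 5 members were above it in NSCPs and 19 in SKPs, and leaving out 1 array gave 26 to 29 and 32 to 34. The array number and the background signal limit what can be said of dim members.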

Other observations

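Attractants outside the chemokine family were read from a list added later, without sight of its values. Of 15 measured genes 2 were higher in NSCPs and 6 were lower, against 25.2% and 18.6% of all genes. Rarres2, which encodes the attractant chemerin, stood at 9.34, 9.48 and 9.23 in NSCP replicates 1, 2 and 3, against 6.98, 7.96 and 7.08 in SKP replicates 1, 2 and 3, a difference of 2.01 (adjusted p = 2.20e-04 in limma). Its receptor gene Cmklr1 was at 4.84, 4.76 and 4.97 in NSCPs, against 8.87, 9.50 and 8.86 in SKPs, at least 13.5-fold lower in NSCPs.

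The 2 ligands of the macrophage growth factor receptor differed in opposite directions. Il34 was higher at 7.76, 8.50 and 8.39 in NSCPs, against 6.04, 5.60 and 6.16 in SKPs (difference 2.28, adjusted p = 6.09e-05 in limma). Csf1 was lower at 9.26, 9.44 and 9.24 in NSCPs, against 11.06, 10.87 and 11.29 in SKPs (difference -1.76, adjusted p = 1.87e-05 in limma). Their receptor gene Csf1r, a macrophage marker, was 9.51-fold lower in NSCPs. Alox5 and Alox5ap, which make leukotrienes, were at least 7.79-fold and 5.92-fold lower in NSCPs, and Mif (-0.07) was not called.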
